A study of Mus musculus with 6 samples.

Results

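The Usher scaffold and ankle-link genes were examined as 6 genes chosen by name, out of 52636 genes in the deposited table: Ush1c, Ush1g, Adgrv1, Whrn, Pdzd7 and Clrn1. All 6 had a row in the table and all 6 were tested, so no member was lost to a filter on low counts. RNA came from the vestibular sensory epithelium of adult male mice of the 129S1/SvImJ strain. Plain drinking water was given to 3 Control animals, and 3,3'-iminodipropionitrile (IDPN), a nitrile that damages inner ear sensory hair cells (HCs), to 3 others. IDPN was dissolved at 30 mM in the drinking water and given for 8 weeks. Both groups carried no transgene or allele named in the labels. Each library was 1 animal whose 2 utricles and 6 cristae, the sensory patches of the vestibular organ, had been pooled.

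HCs detect head movement with a bundle of stereocilia, actin-filled projections of graded height that are tied together by extracellular links. In the Usher complexes, adhesion proteins in the membrane form these links and cytoplasmic scaffolds with PDZ domains or ankyrin repeats anchor them to actin and to myosin motors. Mutations in several of these genes cause Usher syndrome, an inherited loss of hearing and vision that in its severe form also removes vestibular function. Ush1c encodes harmonin and Ush1g encodes SANS, scaffolds of the tip-link complex. Adgrv1 encodes a very large adhesion G protein-coupled receptor that forms the ankle links at the base of developing stereocilia, and Whrn (whirlin) and Pdzd7 encode related PDZ scaffolds that hold it. Clrn1 encodes clarin-1, a small membrane protein of the bundle and the HC synapse.

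Under exposure, Ush1c was 1.49-fold lower in IDPN than in Control (log2-Fold_Change -0.57, SE 0.15, n = 3 per group), with a Padj of 0.00527 by the DESeq2 Wald test, and it missed the fold change of 1.5 that a call also needed. Ush1g was lower in every IDPN library and did not pass (log2-Fold_Change -0.47, SE 0.21, Padj 0.206, DESeq2). The estimates of Adgrv1, Whrn, Pdzd7 and Clrn1 lay between -0.14 and 0.06, with Padj of 0.826 or above. A gene was called when its Padj, the p-value adjusted over all tested genes, was under 0.05 and its fold change was above 1.5. By this rule 0 of the 6 genes were called, against 5.75% of the 17650 genes tested. With DESeq2, 1 of the 6 passed on Padj alone, against 6.33% of all genes, and 2 had an unadjusted p under 0.05, against 16.9%. The edgeR quasi-likelihood test also called 0 of the 6, against 3.21% of its genes, and gave the same 2 an unadjusted p under 0.05. In 2 of the 6, Ush1c and Ush1g, every IDPN library lay below every Control library, against 11.4% of all genes. The median log2-Fold_Change was -0.11 over the 6 genes and 0.015 over all tested genes.

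The tissue label was checked against cell type markers. Over all 17650 genes tested, 8534 had estimates below 0, and DESeq2 called 604 (3.42%) lower in IDPN and 410 higher. All 16 listed HC markers were detected, 14 of the 16 had estimates below 0, and 6 were called lower in IDPN by DESeq2. Their median log2-Fold_Change was -0.59, and their summed normalized counts were 43385 to 49455 in Control and 29826 to 34176 in IDPN. Pou4f3, the transcription factor that maintains HCs, fell from a mean of 6354 to 3174 (Padj 9.34e-10, DESeq2), whereas the HC motor gene Myo7a had means of 798.8 and 807.6. All 10 supporting cell markers were detected, 2 were called lower, and their median log2-Fold_Change was -0.37, with summed counts of 422708 to 617337 in Control and 317663 to 378661 in IDPN. In this bulk tissue, fewer HCs and less RNA per HC cannot be told apart. Of 10 tested macrophage markers 8 had estimates above 0 (median 0.53), with summed counts of 2124 to 2983 in Control and 2549 to 3789 in IDPN. All 6 stromal markers had estimates above 0 (median 0.34; 20441 to 39051 against 35993 to 38675) and all 6 dark or transitional cell markers below 0 (median -0.40; 51794 to 86608 against 51734 to 61186), and DESeq2 called 0 genes in these 3 lists. Of 6 Schwann cell markers 4 had estimates below 0 and 1 was called higher (median -0.34; 101960 to 224626 against 90542 to 109768). Of 5 tested neuron markers 4 had estimates below 0 and 3 were called lower (median -0.59; 4916 to 5123 against 3101 to 3402). The part of these shifts in the results on the 6 genes was not tested.

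The libraries held 40474847 to 43566332 estimated counts. The DESeq2 size factors of Control 1 to 3 were 0.825, 0.866 and 1.12, and those of IDPN 1 to 3 were 1.21, 0.996 and 1.07. The mitochondrially encoded share was 10.1 to 13% in Control and 8.15 to 9.92% in IDPN. One batch code stands in the labels of every library. The Control animals have title codes with a common beginning, found on no IDPN animal, and whatever that beginning marks cannot be told apart from the treatment. Of the IDPN animals, IDPN 2 and IDPN 3 share another beginning, and IDPN 1 has its own. Scaling by total counts in place of size factors raised the median log2-Fold_Change of all genes by 0.251 and turned the split of called genes from 604 lower and 410 higher to 214 lower and 609 higher.

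Ush1c was by far the most abundant of the 6. Control 1 to 3 had 18993, 19172 and 16079 normalized counts, and IDPN 1 to 3 had 11057, 12886 and 12560. Every IDPN library was below every Control library, with Control 3 the lowest of its group and IDPN 1 the lowest of all. The means were 18081 ± 1736 in Control and 12168 ± 975.4 in IDPN (SD, n = 3). The 95% interval of the log2-Fold_Change ran from -0.87 to -0.27, so that both a call and a change well under 1.5-fold were inside it. Ush1c was 1 of 104 genes that passed on Padj and missed the fold change, and it ranked 555 of 17650 by p-value. The edgeR test gave the same log2-Fold_Change of -0.57 with an adjusted p of 0.107. The raw estimated counts were 15660 to 18073 in Control and 12834 to 13459 in IDPN, which did not overlap before any scaling either. Its exons share 120 bases with Gm9860, an unnamed transcript on the opposite strand.

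The call on Ush1c turned on single libraries. Leaving out Control 3 gave -0.65 (Padj 0.000273, DESeq2), leaving out IDPN 2 gave -0.61 (Padj 0.00794, DESeq2) and leaving out IDPN 3 gave -0.60 (Padj 0.025, DESeq2), each of which is a call. Leaving out Control 2 or IDPN 1 gave Padj of 0.0607 and 0.0646 by DESeq2, which pass neither threshold. Scaling by total counts gave -0.31 (Padj 0.345, DESeq2). The direction was lower in IDPN in all of these.

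**Figure D1:**
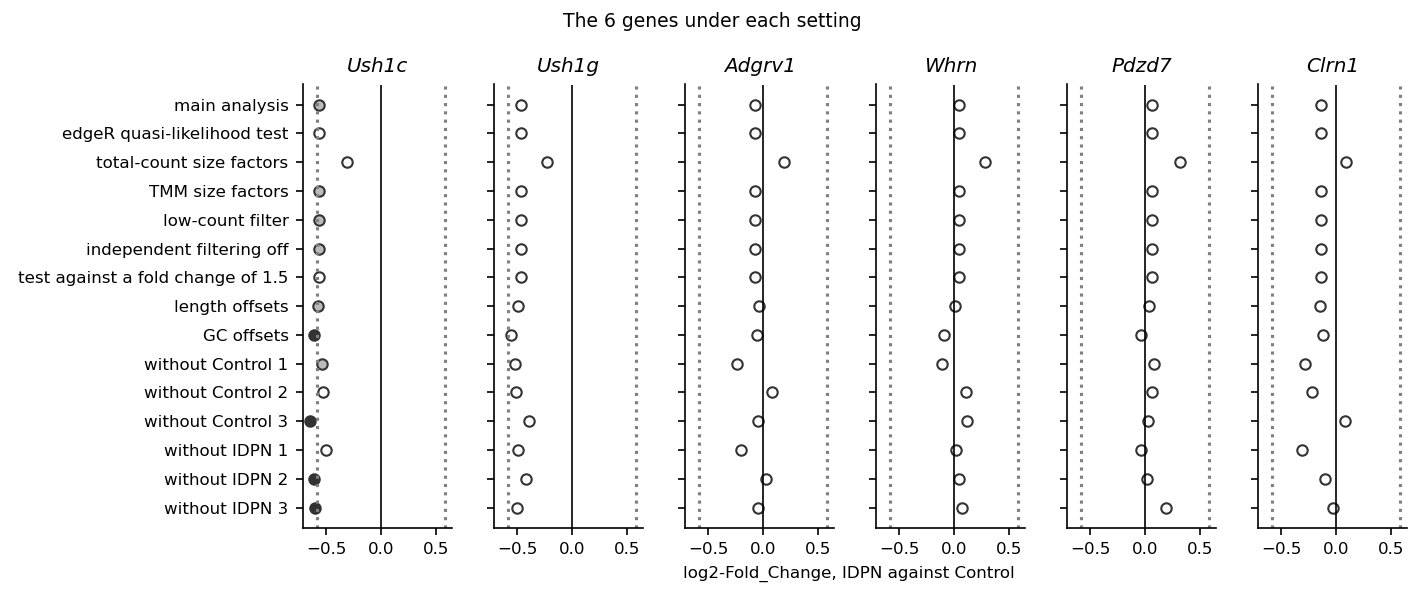
The log2-Fold_Change, IDPN against Control, of each of the 6 genes (panels, x axis) under each setting (y axis). Black points were called, grey points passed on Padj alone, white points passed neither or only the fold change, and dotted lines mark a fold change of 1.5 in either direction. Ush1c lies beside the dotted line in most settings, from -0.65 without Control 3 to -0.31 with total-count size factors, while Ush1g stays below 0 and the other 4 genes scatter around it.

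Ush1c (ENSMUSG00000030838.18) lies on chromosome 7 from 46195350 to 46238503 on the minus strand of GRCm38, a protein-coding gene with 28 merged exon blocks. On the plus strand, 2483 bases beyond its start, begins Otog, which encodes otogelin, a glycoprotein that supporting cells secrete into the gelatinous membranes over the HCs. The adjacent starts, transcribed away from each other, are shown by the 250 bases upstream of each RefSeq start (GRCm38.p6), 5′ to 3′ on the strand of the gene, because both genes had lower levels in IDPN. Ush1c covers chr7:46238491-46238740 on the minus strand and Otog covers chr7:46240737-46240986 on the plus strand, and capitals mark CG dinucleotides.
Ush1c: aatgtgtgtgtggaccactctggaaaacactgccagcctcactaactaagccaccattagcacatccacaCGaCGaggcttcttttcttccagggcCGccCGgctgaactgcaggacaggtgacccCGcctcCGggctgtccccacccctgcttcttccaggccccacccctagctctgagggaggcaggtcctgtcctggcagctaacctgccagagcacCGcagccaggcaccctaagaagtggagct
Otog: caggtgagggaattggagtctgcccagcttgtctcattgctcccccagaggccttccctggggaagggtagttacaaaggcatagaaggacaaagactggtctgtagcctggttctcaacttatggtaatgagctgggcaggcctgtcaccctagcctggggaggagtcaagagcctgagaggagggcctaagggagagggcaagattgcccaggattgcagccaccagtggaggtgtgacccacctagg
The Ush1c window held 7 CG dinucleotides and 61.2% G and C, and the Otog window held 0 and 57.2%, beside medians of 6 and 52.4% over 32851 windows of the same length. The motifs CAGCTG and CAGATG (E-boxes), TAATTA (a homeodomain core), GTTGCC (an RFX half-site) and TATAAA were searched on both strands, and neither window held one. Each of these motifs occurs in 13.0%, 14.4%, 4.84%, 10.4% and 12.4% of all windows, in that order. Of the 5 members with an entry (Ush1g was not matched), Clrn1 held CAGATG at position -140 from its start, Pdzd7 held CAGCTG at -66, Whrn held GTTGCC at -155, and Adgrv1 held none of the motifs. A match describes letters, and none is a site.

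Otog was singled out after its values were seen. It had 52148, 47589 and 53188 normalized counts in Control, and 31988, 39633 and 36852 in IDPN. The groups did not overlap, and the log2-Fold_Change was -0.50 (SE 0.15, Padj 0.0205, DESeq2), which like that of Ush1c passed on Padj and missed the fold change. The log2 ratio of Ush1c to Otog counts was -1.46, -1.31 and -1.73 in Control and -1.53, -1.62 and -1.55 in IDPN. The means of this ratio, -1.50 and -1.57, are a description, since Otog was chosen with its values known. Otog is one of the listed supporting cell markers.

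Ush1g, the other tip-link scaffold, was measured at a far lower level. Control 1 to 3 had 291.1, 293.2 and 339.9 normalized counts, and IDPN 1 to 3 had 229.2, 205.8 and 231.4. The groups did not overlap, and the highest IDPN library stood below the lowest Control library. The means were 308 ± 27.6 and 222.2 ± 14.2 (SD, n = 3). The 95% interval of the log2-Fold_Change, -0.89 to -0.05, did not include 0, the DESeq2 unadjusted p was 0.027 and the edgeR adjusted p was 0.196. When 1 library at a time was left out, the estimate stayed between -0.52 and -0.39, and with total-count scaling it was -0.23. The raw estimated counts overlapped, at 240 to 382 in Control and 205 to 277 in IDPN. Ush1g (ENSMUSG00000045288.10, chromosome 11, 115315192 to 115322041, minus strand) has 3 exon blocks and lies inside the span of Otop2 on the opposite strand, a gene listed at 0 in 5 of the 6 libraries.

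Adgrv1, the ankle-link receptor, had overlapping groups. The 3 Control libraries had 150.4, 241.2 and 205.5 normalized counts and the 3 IDPN libraries had 222.6, 160.6 and 183.8. The lowest value was Control 1 and the highest Control 2, so that the Control group alone covered the whole range. The means were 199 ± 45.8 and 189 ± 31.3 (SD, n = 3), with a log2-Fold_Change of -0.07 (SE 0.27, Padj 0.939, DESeq2) and a 95% interval from -0.60 to 0.45. The direction turned to 0.19 with total-count scaling. The gene (ENSMUSG00000069170.14, chromosome 13, 81095068 to 81633154, minus strand) has 95 exon blocks that cover 24878 bases, and 124 to 269 raw estimated counts fell on them per library.

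Whrn, the PDZ scaffold found at ankle links and at stereocilium tips, was the gene with the fewest counts. Normalized counts stood at 64.3, 90.0 and 89.9 in the Control libraries and at 86.9, 84.3 and 80.3 in the IDPN libraries. All IDPN libraries lay inside the range of the Control libraries. The means were 81.4 ± 14.8 and 83.8 ± 3.35 (SD, n = 3), with a log2-Fold_Change of 0.04 (SE 0.33, Padj 0.975, DESeq2). Its 95% interval, -0.60 to 0.68, contains a change of 1.5-fold in either direction, and the gene had 53 to 105 raw counts per library. The sign turned to -0.09 with offsets for GC content, and Whrn (ENSMUSG00000039137.18, chromosome 4, 63414910 to 63495991, minus strand) was, at 63.2% G and C, the richest of the 6 transcripts.

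Pdzd7, the paralog of harmonin and whirlin that organizes the ankle-link complex, was the most even of the 6 genes within Control. The Control libraries had 483.9, 469.8 and 450.2 normalized counts, and the IDPN libraries had 556.1, 511.1 and 393.8. The IDPN libraries lay on both sides of the Control libraries. The means were 468 ± 16.9 and 487 ± 83.8 (SD, n = 3), with a log2-Fold_Change of 0.06 (SE 0.20, Padj 0.936, DESeq2) that turned to -0.04 with offsets for GC content. Its 95% interval, -0.34 to 0.45, left out a change of 1.5-fold in either direction. Pdzd7 (ENSMUSG00000074818.12, chromosome 19, 45026906 to 45045717, minus strand) shares 206 exonic bases with Lzts2 on the opposite strand. Reads there cannot be assigned by strand in this protocol, and Lzts2 had a log2-Fold_Change of 0.54 (Padj 0.0415, DESeq2).

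Clrn1 was the second most abundant of the 6. Normalized counts stood at 1590, 1760 and 2508 in the Control libraries and at 2167, 1665 and 1474 in the IDPN libraries. Control 3 was the highest library and IDPN 3 the lowest, and the groups overlapped. The means were 1953 ± 488.4 and 1769 ± 358.4 (SD, n = 3), with a log2-Fold_Change of -0.14 (SE 0.22, Padj 0.826, DESeq2) that was 0.09 with total-count scaling. Its 95% interval, -0.57 to 0.28, only just left out a change of 1.5-fold, a log2 of 0.585 in either direction. With 1 library left out, the estimate ran from -0.31 to 0.08. Clrn1 (ENSMUSG00000043850.15) lies on chromosome 3 from 58844028 to 58885340 on the minus strand.

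**Figure D2:**
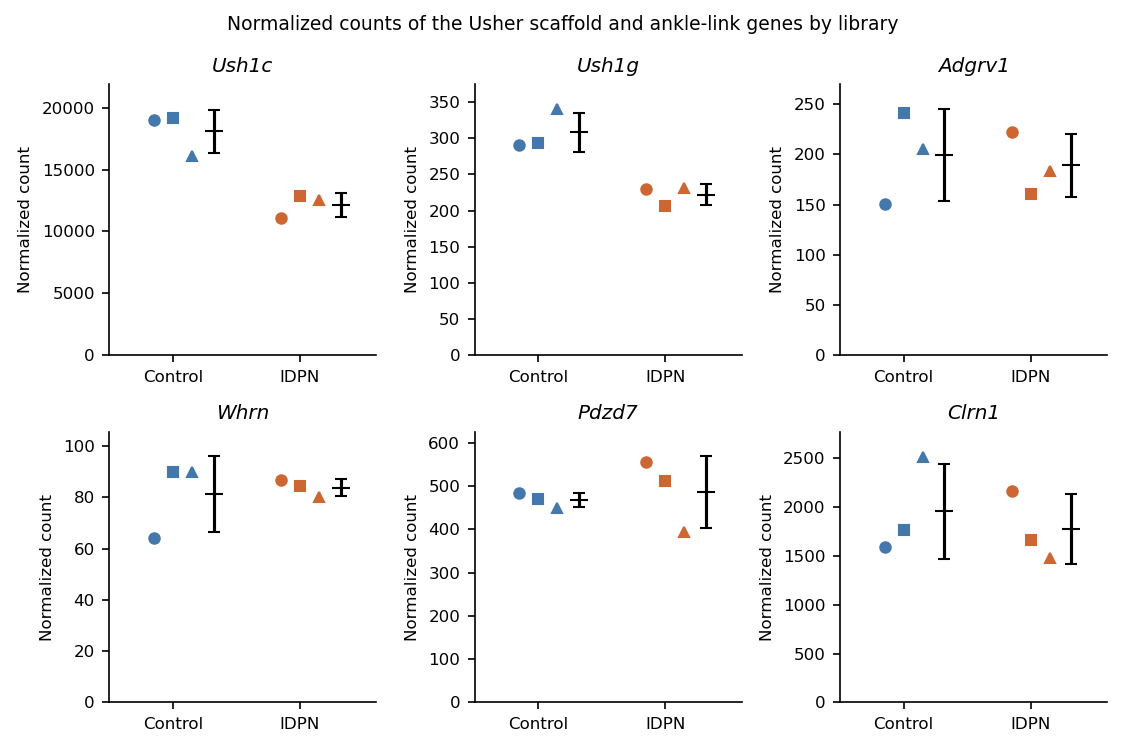
Normalized counts (y axis, from 0) of the 6 genes in each library, with Control in blue and IDPN in orange, circles for replicate 1, squares for 2 and triangles for 3. Black marks are the mean ± SD of 3 libraries. The groups separate for Ush1c and Ush1g and overlap for the other 4 genes.

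Control 3 and IDPN 1 stood apart within their groups for some of these genes, a pattern picked out after the values were seen. Myo7a, the motor that carries harmonin and SANS along the stereocilium, had 642.8, 679.8 and 1074 in Control and 946.8, 682.7 and 793.2 in IDPN. Clrn1 had its highest Control value in Control 3 and its highest IDPN value in IDPN 1, and so did the cadherin gene Cdh23 at 288.3 and 202.8. Ush1c went the other way and had the lowest value of each group in the same libraries. These libraries also had the largest size factors, 1.12 and 1.21, and the part of that in the pattern was not tested.

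Ratios within a library remove the size factor. The log2 ratio of Ush1g to Myo7a was -1.14, -1.21 and -1.66 in Control and -2.05, -1.73 and -1.78 in IDPN. Every IDPN library was below every Control library, by 0.51 between the means. The log2 ratio of Ush1c to Myo7a was 4.88, 4.82 and 3.90 in Control and 3.55, 4.24 and 3.98 in IDPN, which overlapped. Against Pdzd7, Ush1c was lower by 0.61 and Ush1g by 0.51, and against Whrn they were lower by 0.63 and 0.53, with no overlap between the groups in these 4 ratios. The ratio of Ush1c to Ush1g differed by -0.10 and overlapped. Over the 22 ratios compared, the two-sided exact permutation test reached its smallest possible p of 0.10 for those 5 without overlap, with an adjusted p of 0.44, so that no difference between members could pass at 3 against 3 libraries.

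**Figure D3:**
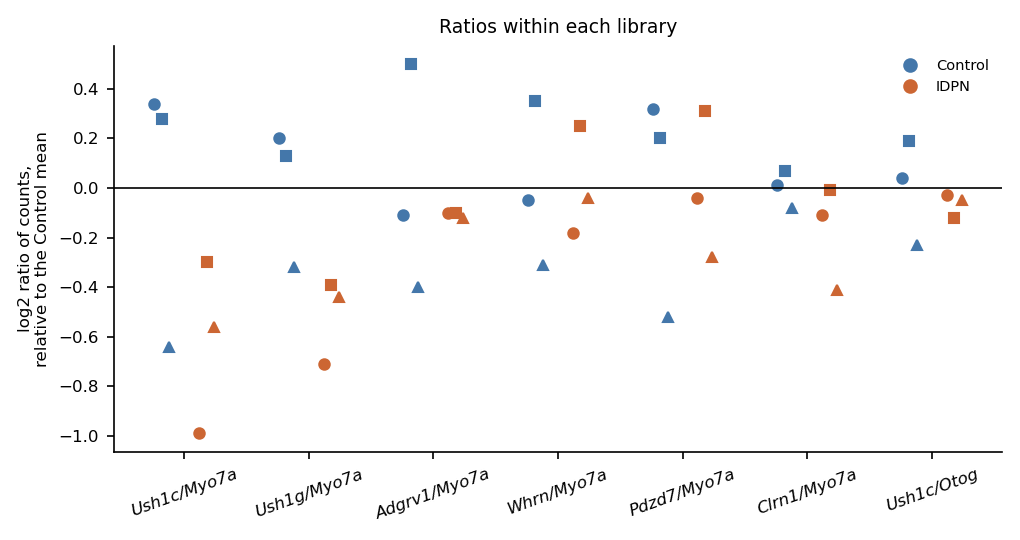
The log2 ratio of estimated counts within each library, relative to the mean of the Control libraries (y axis), for each of the 6 genes over Myo7a and for Ush1c over its neighbour Otog (x axis). Blue points are Control and orange points IDPN, with circles, squares and triangles for replicates 1 to 3. The IDPN points of Ush1g over Myo7a all lie below the Control points, and those of Ush1c over Otog lie within the Control range.

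Levels were compared between genes as normalized counts per kilobase of merged exon. Ush1c had 4698 ± 451 in Control and 3161 ± 253.4 in IDPN (SD, n = 3), 9.28 and 6.89 times the level of Clrn1. Clrn1 followed with 506.3 ± 126.6 and 458.5 ± 92.9. Pdzd7 had 115.4 ± 4.18 and 120.1 ± 20.7. The scaffolds among the 6 genes thus spanned a wide range of levels, with harmonin at the top and whirlin near the bottom. Ush1g had 93.2 ± 8.34 and 67.2 ± 4.29, beside 93.3 ± 27.9 and 94.3 ± 15.5 for Myo7a. Whrn had 11.1 ± 2.02 and 11.4 ± 0.456, and Adgrv1 had 8.0 ± 1.84 and 7.6 ± 1.26. Neighbours in this order had separate ranges in both groups, except Whrn and Adgrv1 in Control, which separated only when the longest transcript was used as the length. The level of Pdzd7 was 1.24 times that of Ush1g in Control and 1.79 times in IDPN.

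Ush1c made up 82.5 to 88.6% of the summed level per kilobase of the 6 genes in Control and 78.4 to 85.2% in IDPN. Over all 52636 genes in the deposited table, Ush1c ranked 303 by abundance, Clrn1 2700, Pdzd7 7322, Ush1g 9386, Adgrv1 10275 and Whrn 12174. These ranks rest on counts that are not divided by length. The library preparation copies RNA from its 3′ tail, so the longest transcripts, above all Adgrv1, may be covered unevenly, which was not tested. Otog, at 4926 ± 287.8 per kilobase in Control and 3494 ± 373.9 in IDPN, was the gene plotted whose level was nearest to that of Ush1c.

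**Figure D4:**
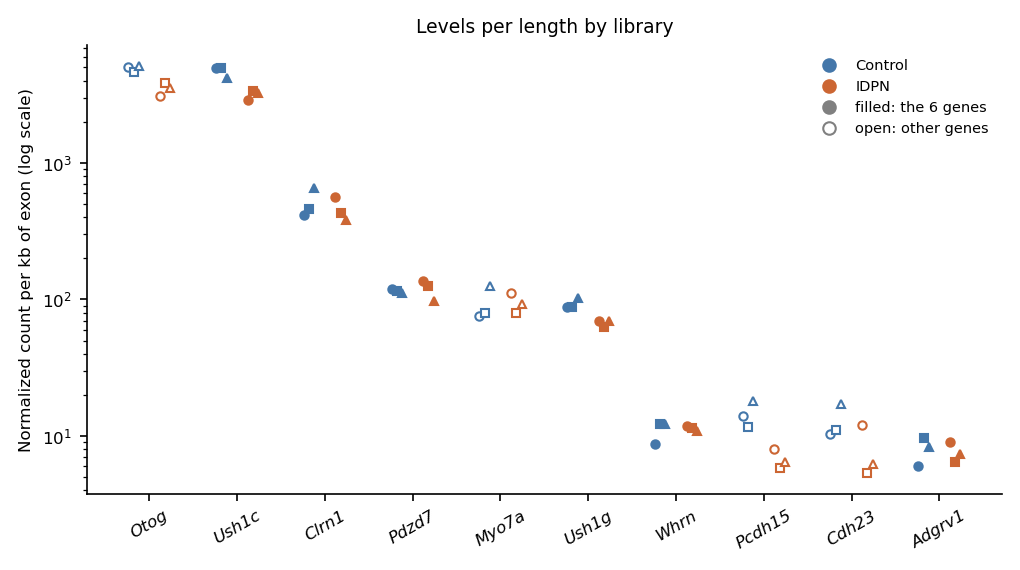
Normalized counts per kilobase of merged exon (y axis, log scale) in each library for the 6 genes (filled), for Otog, and for the Usher motor and adhesion genes Myo7a, Pcdh15 and Cdh23 (open). Blue points are Control, orange points IDPN, and shapes are replicates 1 to 3. Ush1c stands near 4698 in Control and Adgrv1 near 8.0, and Ush1c, Ush1g, Otog and Pcdh15 show no overlap between groups.

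The partners of these genes were followed in a list of 28 genes, grouped by role and chosen with earlier results of these data known. Of the 28, 23 were tested, 17 with estimates below 0 and 6 above, and 7 were called lower in IDPN by DESeq2, against 3.42% of all genes in that direction, with 0 called higher. Their median log2-Fold_Change was -0.24, beside 0.015 over all genes. The edgeR test called 5 of them lower, and leaving out 1 library at a time left 5 to 7 calls. With total-count scaling 3 were called, and 1 when the test itself was set against a fold change of 1.5.

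Among the 4 listed partners of the tip-link complex, which are adhesion, motor and calcium-binding proteins, 1 was called. Pcdh15, the protocadherin that forms the lower part of the tip link, stood at 333.5, 278.2 and 430.6 normalized counts in the Control libraries and at 191.2, 137.6 and 152.1 in the IDPN libraries. It fell to 160.3 from 347.4 on the means (log2-Fold_Change -1.12, Padj 0.000554, DESeq2). Cdh23, the cadherin of the upper part, was lower by estimate and did not pass (log2-Fold_Change -0.70, Padj 0.258, DESeq2). Myo7a had a log2-Fold_Change of 0.01 (Padj 0.987, DESeq2). Cib2, a calcium-binding partner of the transduction channel, had -0.25 (Padj 0.46, DESeq2). Every IDPN library of Cib2 lay below every Control library, which held for 11.4% of all genes. Ush1c and Ush1g, which anchor this complex, lay between Pcdh15 and Myo7a in the size of their estimates.

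The ankle-link partners Vezt and Adcy6 were not called, and neither were the ankle-link members. Vezt, a cadherin-associated membrane protein of the ankle links, had a log2-Fold_Change of 0.23 (unadjusted p 0.157, Padj 0.52, DESeq2). Every IDPN library lay above every Control library, and the share of all genes with this separation was not counted. Adcy6, an adenylyl cyclase placed with the ankle-link complex, had 0.03 (Padj 0.974).

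Of the 6 genes listed for the stereocilium tip with whirlin, 1 was called. Myo15, whose product, myosin XV, delivers whirlin and Eps8 to the tip, had 1795, 1532 and 1890 in Control and 945.9, 749 and 563.7 in IDPN, and it fell with a log2-Fold_Change of -1.21 (Padj 8.13e-07, DESeq2). Whrn itself had 0.04. The actin regulator Eps8 and the polarity genes Gpsm2 and Gnai3 had estimates of -0.05, 0.02 and -0.07, with Padj of 0.915 or above. Espn and Mpp1, the remaining genes listed there, had -0.18 (Padj 0.83, DESeq2) and -0.07 (Padj 0.902, DESeq2).

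The transduction complex at the lower end of the tip link had 4 of 5 genes called lower by DESeq2. Cib3 fell with a log2-Fold_Change of -1.05 (Padj 9.59e-08), Lhfpl5 with -0.66 (Padj 0.000685), Tmc1 with -0.70 (Padj 0.0231) and Tmc2 with -0.98 (Padj 0.0239). Tmie had -0.14 (Padj 0.731). With total-count scaling Lhfpl5 lost its call, as did Pcdh15 of the tip link, Tmc1 and Tmc2, while Cib3 was still called. Tmc1 and Tmc2, the pore subunits, lost the call with edgeR (adjusted p 0.102 and 0.0983) and when single libraries were left out, Tmc1 in 4 of 6 such fits and Tmc2 in 5 of 6. Ptprq, a receptor phosphatase that forms shaft connectors, fell most of the list, from 22558 ± 1706 to 7730 (log2-Fold_Change -1.55, Padj 5.09e-18, DESeq2). It was called in all 14 alternative settings, and was the 1 gene called of 3 listed for other bundle surface links. The others of that group, Strc and Loxhd1, had -0.24 (Padj 0.739, DESeq2) and -0.68 (Padj 0.108, DESeq2).

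**Figure D5:**
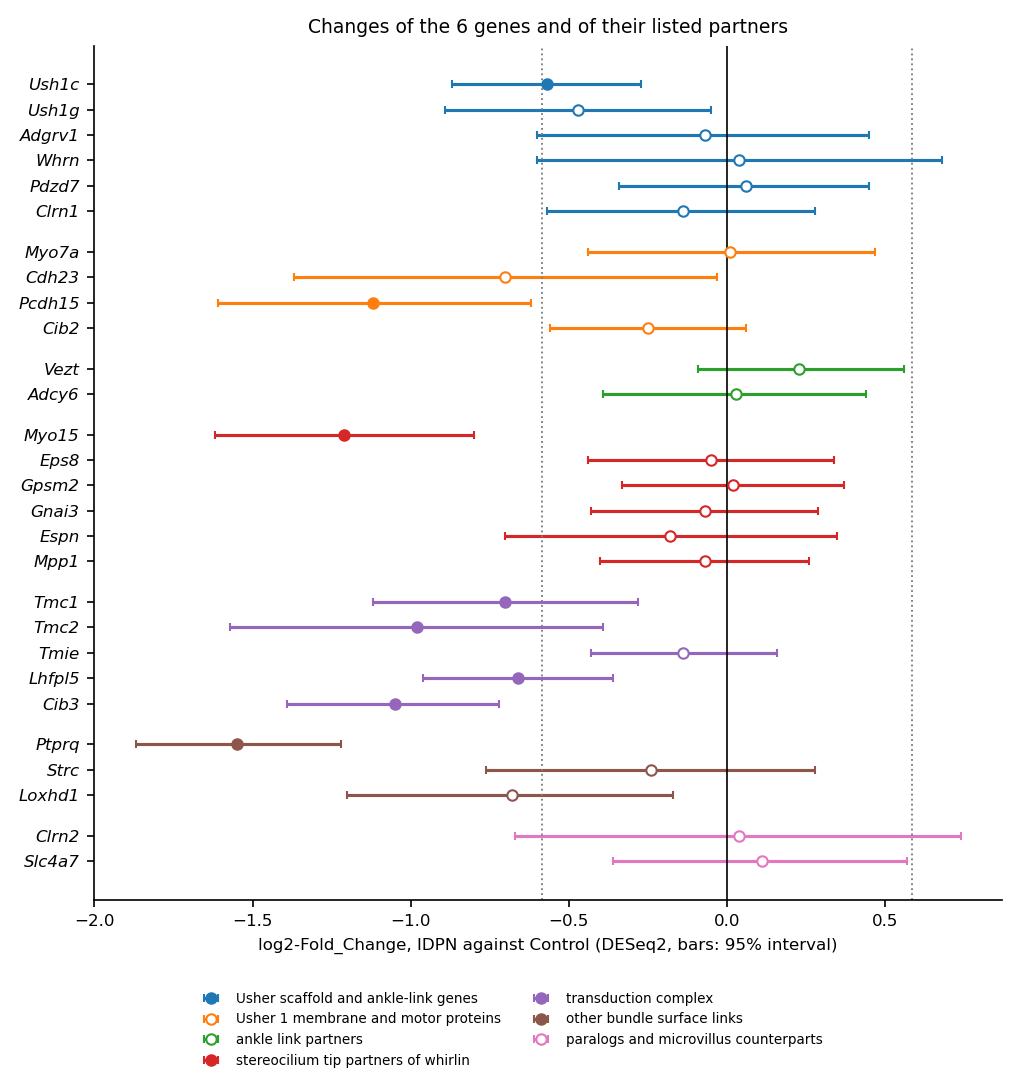
The log2-Fold_Change with its 95% interval (x axis, DESeq2, 3 Control and 3 IDPN libraries) for the 6 genes and 22 of the tested partners (y axis), coloured by role. Filled points have Padj under 0.05 and open points do not, and dotted lines mark a fold change of 1.5. The points of Pcdh15, Myo15, Tmc1, Tmc2, Lhfpl5, Cib3 and Ptprq lie left of the dotted line and are filled, and that of Ush1c is filled and lies just inside it at -0.57.

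The list also held paralogs, the counterparts that build a similar adhesion complex in intestinal microvilli, and the bicarbonate cotransporter gene Slc4a7. Clrn3, Anks4b (the paralog of Ush1g), Myo7b and Cdhr2 were listed at 0 in all 6 libraries, where a count of 0 allows up to 3 counts per library, and Cdhr5 had a normalized count of 1.78 in Control 3 and 0 elsewhere. Ush1c, which takes part in the intestinal complex as well, was thus measured without these counterparts. Slc4a7 had a log2-Fold_Change of 0.11 (Padj 0.892). Clrn2, the paralog of Clrn1 in HCs, had 0.04 (Padj 0.98) at means of 133.7 and 137.6.

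The genes most like each member were ranked by the root mean square difference of centred log2 counts over the 6 libraries, over genes whose normalized counts averaged 100 or more. For Ush1c they were Oscp1 and Gng5 (0.041 each) and Sorbs2 (0.045), and for Ush1g Dgcr8 (0.033), Mllt3 (0.043) and As3mt (0.049). For Adgrv1 they were Slc46a3 (0.071), Fzd1 (0.081) and Lin37 (0.084), and for Whrn Capn10 (0.033), Cyb561a3 (0.044) and Mpp6 (0.055). For Pdzd7 they were Sppl2b (0.044) and Prep (0.048), and for Clrn1 Plekhn1 (0.064), Utp6 (0.067) and Gm7694 (0.070). No member was among the 3 nearest genes of another. Likeness over 6 libraries is common: 337 of 11769 genes lay within 0.15 of Ush1c, 330 of Ush1g, 784 of Pdzd7, 130 of Clrn1 and 98 of Adgrv1.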

How the data were processed

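RNA-seq libraries from the vestibular epithelium of 3 Control and 3 IDPN mice were analysed. Between 6 and 11 ng of total RNA were reverse transcribed with an oligo-dT primer under a modified SMART-seq2 protocol, with 8 cycles of cDNA and 12 cycles of library amplification. The protocol has no molecular identifiers and keeps no strand, so reads are not independent molecules. Per the submitters' processing notes and the study's methods, the authors aligned reads with STAR 2.5.3a to GRCm38 and estimated counts with RSEM 2.3.0 against GENCODE genes. What they deposited is the estimated (expected) count of each gene, as whole numbers and without normalization. Reads matching several genes are shared out between them by RSEM.

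Computed here were normalized counts and the Wald test of DESeq2 1.42.0 (R 4.3.3) over all genes, with median-of-ratios size factors and independent filtering. A call needed Padj under 0.05 and a fold change above 1.5, the thresholds named with DESeq2 in the study's methods. For 40 genes DESeq2 gave no p-value because of its Cook's distance filter. Alternatives were the edgeR 4.0.16 quasi-likelihood test, other size factors (total counts or TMM), a filter of at least 10 counts in 3 libraries, independent filtering off, a test against a fold change of 1.5, smooth offsets (lowess span 0.3) for GC content or transcript length, and leaving out each library. Ratios were tested with a two-sided exact permutation test (scipy 1.17.1). Leaving out libraries for ratios, and the ratio of Ush1c to Otog, were chosen after seeing the data. Coordinates and exon lengths came from GENCODE on GRCm38, a later release than the authors' annotation, and upstream sequences from RefSeq on GRCm38.p6. Levels per length divide by the merged exon length, with the longest transcript as the alternative. The code was tested on simulated data.

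The members and lists were chosen with earlier results of these data known. Named were the 6 members. From the partner list, the genes called, the Usher 1 and ankle-link partners and those at or near 0 were named. Eps8, Gpsm2, Gnai3, Espn, Mpp1, Tmie, Strc, Loxhd1, Clrn2 and Slc4a7 were added after their values were seen, to complete their groups. For likeness the 3 nearest genes of each member were taken. A partner and a nearest gene that this rule selects are not reported here. Marker lists covered HCs, supporting cells, macrophages, Schwann cells, neurons, stroma and dark or transitional cells. With 3 against 3 libraries, DESeq2 p-values set the group difference against a spread between animals that is estimated with the help of all genes. The exact permutation test cannot go below 0.10.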

Additional observations from a re-analysis of the deposited data

How the results depend on the processing

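The 6 genes kept their side of the call in most settings, with Ush1c as the exception: it was called with offsets for GC content (-0.61, Padj 0.00162, DESeq2), which made 1 member called, and when single libraries were left out its log2-Fold_Change ran from -0.65 to -0.50, with 0 to 1 members called. Ush1g ran from -0.52 to -0.39. The estimates of the other 4 genes, near 0, turned sign. Adgrv1 was 0.19 and Clrn1 0.09 with total-count size factors, and Whrn was -0.09 and Pdzd7 -0.04 with GC offsets. With 1 library left out, Adgrv1 ran from -0.24 to 0.08, Whrn from -0.11 to 0.12, Pdzd7 from -0.04 to 0.19, Clrn1 from -0.31 to 0.08 and the Ush1c to Otog ratio from -0.18 to 0.02. None of these reversed estimates had Padj under 0.05, and the cause was not tested.

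The partner list had 3 calls with total-count size factors, 1 in the test against a fold change of 1.5 and 5 to 7 with 1 library left out. Over all genes, 1014 calls (604 lower, 410 higher) became 523 with edgeR (357 and 166) and 145 in the test against 1.5 (111 and 34). Lower calls were 214 and higher calls 609 with total-count scaling. With 1 library left out, all calls ran from 679 to 1331, lower calls from 436 to 720 and higher calls from 234 to 611.

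Levels per kilobase on the longest transcript were 5886 in Control and 3961 in IDPN for Ush1c, 633.4 and 573.7 for Clrn1, 143.3 and 149.2 for Pdzd7, 20.1 and 20.7 for Whrn, and 10.3 and 9.78 for Adgrv1, in the same order. With total-count scaling, levels in IDPN were 3472 for Ush1c, 74.6 for Ush1g and 12.6 for Whrn, and Pdzd7 in Control was 106.7. No paired analysis was possible because the labels give no replicate numbers that the groups share. The 95% intervals of Ush1c, Ush1g, Adgrv1 and Whrn contain a 1.5-fold change.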

Other observations

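Genes beside the 6 members were read as values only. Mindy4b-ps, 21716 bases from Clrn1 on chromosome 3, stood at 3880, 3784 and 3054 normalized counts in the Control libraries and at 2109, 2382 and 2177 in the IDPN libraries. It fell with a log2-Fold_Change of -0.68 (SE 0.16, Padj 0.00108, DESeq2), whereas Clrn1 had -0.14 (Padj 0.826, DESeq2). Sfxn3, 1785 bases from Pdzd7, had 0.04 (Padj 0.937), and Atp6v1g1, the next gene after Whrn, had -0.35 (Padj 0.317). The remaining neighbours with enough counts, Abcc8 beside Ush1c, Fads6 beside Ush1g, Arrdc3 and Lysmd3 beside Adgrv1, Akna beside Whrn, Twnk beside Pdzd7 and Med12l beside Clrn1, had Padj of 0.641 or above. These neighbours were described after the values were seen.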
